A study of Rattus norvegicus with 6 samples.

Results

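The genes described here are 36 members of the TGF-beta and BMP pathway: ligands, receptors, Smads, secreted antagonists and Id target genes. They were picked by name for their role in the pathway and matched, in any letter case, to the gene name that the array gives each non-control probe. Of the 36 genes, 35 had a probe, out of 35071 gene names on the array, and no probe carried the name Gdf5. Those 35 genes were covered by 55 probes. Probes called well above background in 3 or more of the 6 samples were tested, which left 50 probes of 33 members.

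The samples were synovial tissue, the lining of the joint, from hind-leg ankles of 8-week-old male rats. They had adjuvant arthritis, a joint inflammation set off by Freund's complete adjuvant. All rats received 0.1 ml of adjuvant daily for 18 days, and then either saline (arthritis, 3 arrays) or triptolide at 0.4 mg/kg (triptolide, 3 arrays) daily for 14 days. Triptolide is a diterpenoid from the vine Tripterygium wilfordii. The comparison addressed what triptolide does to gene expression in the arthritic joint. Both groups carry the disease, and no healthy tissue was analysed here. Whether the numbered samples of a group are different animals is not stated in the labels. The p-values therefore rest on the spread from sample to sample, part of which may be technical.

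TGF-beta and activin ligands are secreted factors that bind a type II and a type I receptor kinase, which then phosphorylates Smad2 and Smad3. BMPs and some GDFs use related receptors that mostly act through Smad1 and Smad5, and both arms share Smad4. Smad6 and Smad7 block the receptors from inside the cell, antagonists such as noggin, chordin, gremlin and follistatin trap the ligands outside it, and the Id genes are transcribed in response to BMP signals. In synovium the family is known for its part in fibrosis, matrix turnover and cartilage and bone formation.

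No member differed between triptolide and arthritis beyond the spread between arrays once all probes were adjusted for. With limma and Benjamini-Hochberg adjustment over 25783 tested probes, 0 probes passed an adjusted p of 0.05, so the share called was 0%, and the lowest adjusted p was 0.344. The adjusted p of the 33 members ran from 0.994 to 0.999. At an unadjusted p under 0.05, 1 member was higher with triptolide (Tgfbr2) and 0 were lower. Over all 21368 tested genes the shares were 2.04% higher and 1.29% lower.

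Members with 3 arrays of each group on separate sides were also few. Tgfbr2 was higher on every triptolide array than on any arthritis array, against 4.59% of all tested genes. Smad4 was lower on every triptolide array, against 3.92% of all tested genes. In direction, 17 of 33 members had a difference below 0, against 46.3% of all tested genes. The median difference of the members was -0.005 on the log2 scale, beside 0.021 for all tested genes.

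The precision of these negative results varied by gene. The 95% interval of the difference lay within 1 on the log2 scale, a 2-fold difference either way, for 18 of the 33 members, among them Tgfb1, Tgfb2, Tgfbr2, Smad2, Smad4, Bmp2, Bmpr2, Smad1, Smad5 and Id3. For the other 15, among them Ltbp2, Bmp3, Gdf10, Smad6, Nog and Id1, a larger difference lies inside the interval. The median interval reached 0.66 to either side, and standard errors ran from 0.15 for Smad1 and Smad5 to 0.71 for Bmp3 and Gdf10.

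**Figure D1:**
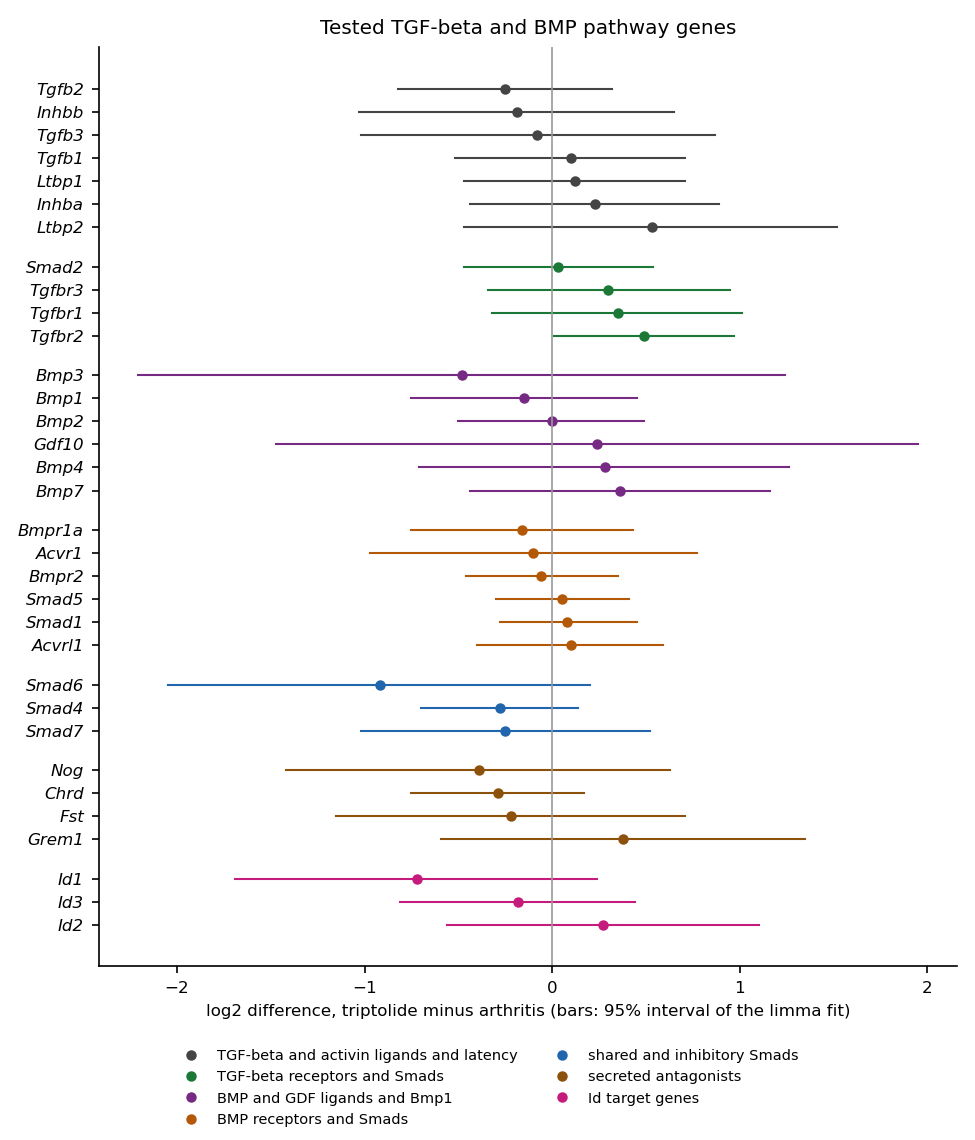
Log2 difference, triptolide minus arthritis, for the 33 tested members (rows, grouped and coloured by role; x axis on the log2 scale). Points are the estimates, 1 probe per gene, and bars the 95% interval of the limma fit; the bars cross 0 for 32 of the 33 genes, with Tgfbr2 the exception.

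Levels below are log2 intensities on which 0 is the array's own 75th percentile. Levels on the 6 arrays are given in the order arthritis 1, 2 and 3, then triptolide 1, 2 and 3, and differences are triptolide minus arthritis with their standard error. A level belongs to its probe and cannot be set against that of another gene. In whole tissue, fewer cells of a type and less RNA per cell cannot be told apart.

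The arrays differed in tissue makeup within both groups, by the mean deviation of marker genes from their average over the 6 arrays. All 10 synovial fibroblast markers and all 10 macrophage markers were among the tested genes, the resident and inflammatory cells that synovial tissue holds. Arthritis 2 stood at 8.79 for 9 tested of 10 skeletal muscle markers, and the other arrays ranged from -4.22 to 2.29. Triptolide 2 stood at 2.41 for 9 tested of 10 nerve and Schwann cell markers and at 1.77 for 9 tested of 10 smooth muscle and pericyte markers. On those lists the other 5 arrays reached at most 0.15 and 0.29. Triptolide 2 was also highest in the mean of 10 endothelial markers (0.77) and of 6 tested of 10 chondrocyte markers (1.35). The chondrocyte markers were uneven. Cnmd stood at 3.49 on triptolide 2 and at most at 0.61 elsewhere. Comp was highest on arthritis 3, and Sox9 and Col11a2 were highest on arthritis 2. Arthritis 1 to 3 and triptolide 1 shared slide 1, and triptolide 2 and 3 were on slide 2. The part of tissue makeup and slide in the results on single genes was not tested.

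**Figure D2:**
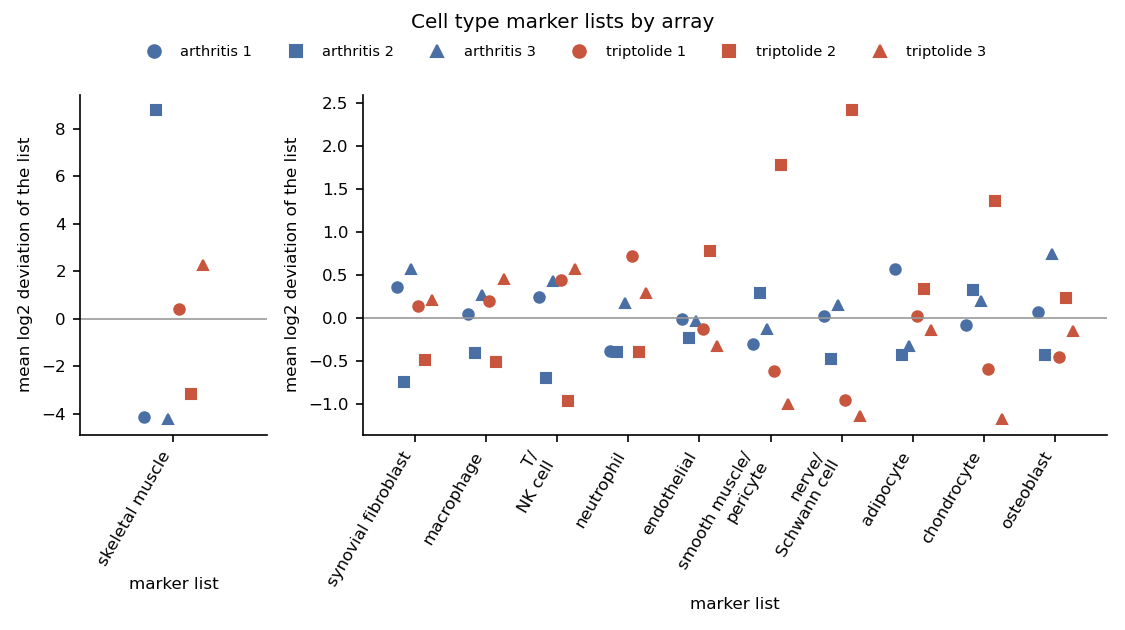
Mean log2 deviation of each cell type marker list from its average over the 6 arrays (y axis), by list (x axis), with skeletal muscle on a scale of its own. Each symbol is 1 array; arthritis 2 (8.79) stands above the others for skeletal muscle, and triptolide 2 for nerve (2.41), smooth muscle (1.77), chondrocyte (1.35) and endothelial (0.77) markers.

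The members were also uneven between arrays. Arthritis 2, the array with the extreme muscle markers, was lowest for 10 members and highest for 6, beside 37.4% and 18.9% of all tested genes. Triptolide 2 was the highest of the 6 arrays for 17 of 33 members, whereas it was highest for 24.2% of all tested genes. Triptolide 1 was the lowest array for 10 members and triptolide 3 for 9, beside 16.8% and 9.78% of all tested genes. The mean deviation over the 33 members was 0.32 on triptolide 2, and it was -0.14 on triptolide 1 and -0.21 on triptolide 3. The arthritis arrays lay between -0.01 and 0.05. Thus the triptolide arrays lay on both sides of the arthritis arrays.

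**Figure D3:**
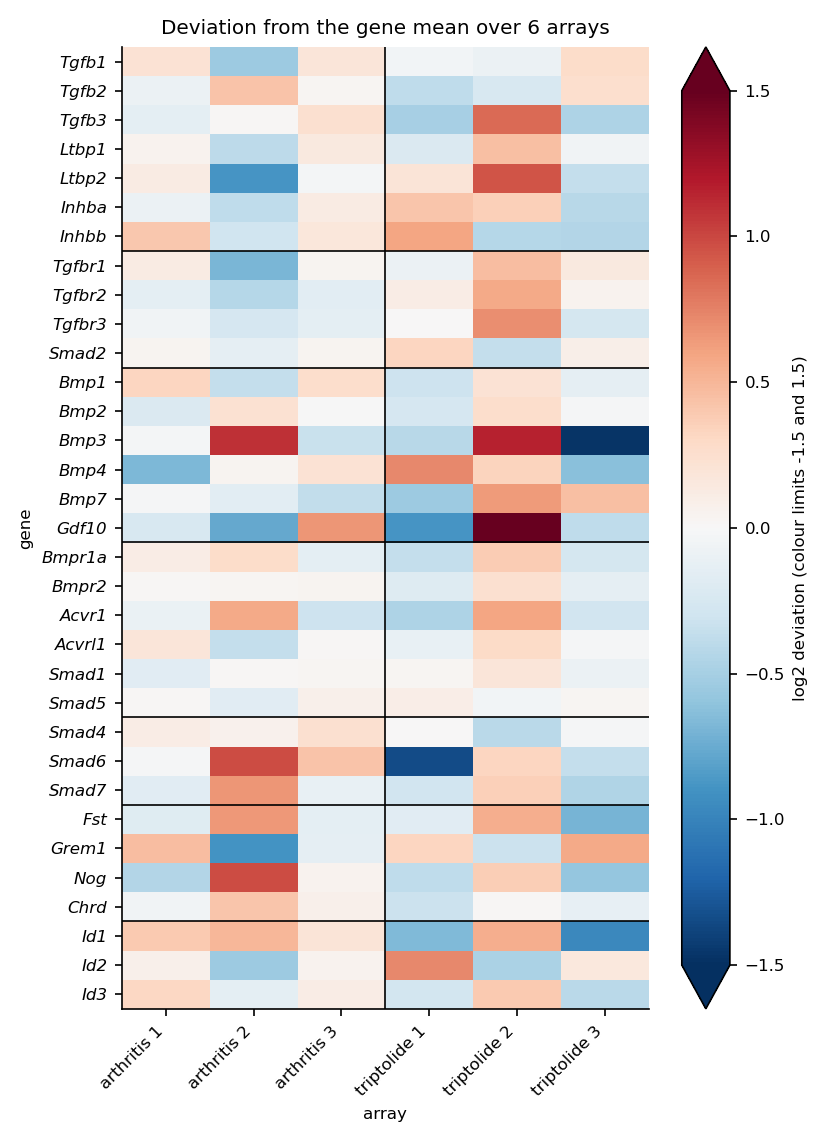
Log2 deviation of each tested member (rows, with lines between roles) from its own mean over the 6 arrays (columns; the vertical line separates arthritis from triptolide). Red is above and blue below the gene mean; triptolide 2 has the highest value for 17 of the 33 genes, including Gdf10, Tgfb3, Ltbp2 and Tgfbr3.

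Among the 7 TGF-beta and activin ligands and latency genes, 4 had a positive and 3 a negative difference, with a median of 0.10 and 0 members past an unadjusted p of 0.05. Tgfb1, the main TGF-beta isoform of inflamed tissue, stood at 1.12, 0.35 and 1.08 in arthritis and at 0.86, 0.81 and 1.17 with triptolide. The triptolide values fell within or just past the arthritis range, and the low array was arthritis 2. The difference was 0.10 (SE 0.26), with a 95% interval from -0.52 to 0.71. Tgfb2, an isoform with the same receptors, stood at -1.25, -0.73 and -1.13 in arthritis and at -1.54, -1.40 and -0.91 with triptolide. Triptolide 1 and 2 were the lowest arrays, and triptolide 3 lay inside the arthritis range. Its difference was -0.25 (SE 0.24). Tgfb3, the remaining isoform, stood at 0.09, 0.25 and 0.48 in arthritis and at -0.26, 1.09 and -0.23 with triptolide. Triptolide 2 was above, and triptolide 1 and 3 below, all arthritis arrays, so that the difference of -0.08 (SE 0.39) averages values on opposite sides.

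Ltbp2 codes for a matrix protein of the latent TGF-beta binding protein family. It stood at -2.43, -3.44 and -2.59 in arthritis and at -2.36, -1.61 and -2.91 with triptolide. Its lowest array was arthritis 2 and its highest triptolide 2, the arrays with the extreme muscle and nerve marker values, and the groups overlapped. The difference was 0.53 (SE 0.41). Without both arrays, an alternative chosen after seeing the data, it was -0.12. Ltbp1, which holds latent TGF-beta in the matrix, differed by 0.12 (SE 0.24), and by -0.23 without both arrays.

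Inhba codes for the subunit of activin A. It stood at 0.94, 0.65 and 1.15 in arthritis and at 1.44, 1.38 and 0.61 with triptolide. Triptolide 1 and 2 were the highest arrays and triptolide 3 the lowest, so the groups overlapped at both ends. The difference was 0.23 (SE 0.28). Inhbb, the subunit of activin B, differed by -0.19 (SE 0.35) by its brighter tested probe and by 0.01 by the other.

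The receptor side of the TGF-beta arm had positive differences in all 4 tested members, from 0.03 to 0.49, with a median of 0.33. Tgfbr2, the type II receptor that binds TGF-beta and starts the kinase cascade, was the only member past an unadjusted p of 0.05. It stood at -0.98, -1.27 and -1.0 in arthritis and at -0.73, -0.27 and -0.78 with triptolide. All 3 triptolide arrays were above all 3 arthritis arrays, with the wider gap on triptolide 2. The means were -1.08 ± 0.16 (SD, n = 3) and -0.59 ± 0.28 (SD, n = 3). The difference was 0.49 (SE 0.20), 1.41-fold, with an unadjusted limma p of 0.045 and a Benjamini-Hochberg adjusted p of 0.994. An exact two-sided permutation test of 3 arrays against 3 cannot go below 0.1. Without triptolide 2 the difference was 0.33, with an unadjusted limma p of 0.0969. With slide as a block, which leaves triptolide 1 as the only treated array to compare, it was 0.35. After normexp background correction it was 0.29, with an unadjusted limma p of 0.0897. That correction starts from the raw spot signal and adds an offset of 50, which makes differences of dim probes smaller. Which step changed the Tgfbr2 value was not tested. Leaving out any 1 array took the unadjusted limma p above 0.05, to values from 0.051 to 0.107. The high array, triptolide 2, was also highest for the endothelial, nerve, smooth muscle and chondrocyte lists.

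The probe behind this value is shown because it is the only measure of Tgfbr2 on the array. It lies on the minus strand of chr8:120608696-120608755 of rat build rn4, per the file headers, in RefSeq transcript NM_031132. No base is marked.
Tgfbr2 probe: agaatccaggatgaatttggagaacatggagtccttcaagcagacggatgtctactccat

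Tgfbr1, the type I receptor that Tgfbr2 phosphorylates, had 3 tested probes that differed in sign. The brightest stood at 0.38, -0.43 and 0.30 in arthritis and at 0.17, 0.72 and 0.41 with triptolide. Arthritis 2 was the lowest and triptolide 2 the highest array, and the groups overlapped. Its difference was 0.35 (SE 0.27), while the other probes gave 0.07 and -0.32. Without arthritis 2 and triptolide 2 the brightest probe gave -0.05.

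Tgfbr3 codes for betaglycan, a co-receptor that presents TGF-beta to the signalling receptors. It stood at -1.93, -2.12 and -2.02 in arthritis and at -1.86, -1.17 and -2.13 with triptolide. Triptolide 2 was well above the other arrays and triptolide 3 was the lowest. The difference was 0.30 (SE 0.27), and without arthritis 2 and triptolide 2 it was -0.02. Smad2, the receptor-activated Smad of this arm, differed by 0.03 (SE 0.21). Smad3, its partner, had 1 probe, which was not well above background on any of the 6 arrays and was not tested. Inhbb and Nog each had such a probe beside detected ones. A single undetected probe therefore cannot show that Smad3 RNA was absent.

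Of the 6 tested BMP and GDF ligands, counted with Bmp1, 3 had a positive and 3 a negative difference, with a median of 0.12 and 0 past an unadjusted p of 0.05. Bmp7, a ligand known for bone formation and for opposing TGF-beta in fibrosis, stood at -2.76, -2.89 and -3.10 in arthritis and at -3.28, -2.10 and -2.29 with triptolide. Triptolide 2 and 3, the arrays of slide 2, were the highest and triptolide 1 was the lowest. The difference was 0.36 (SE 0.33), and it was -0.36 with slide as a block and 0.05 after normexp. Without triptolide 1 it was 0.73, with an unadjusted limma p of 0.0125, and without triptolide 2 it was 0.13. Bmp4 stood at -3.48, -2.77 and -2.59 in arthritis and at -2.09, -2.48 and -3.44 with triptolide. Triptolide 1 and 2 were the highest arrays, and triptolide 3 lay beside the low arthritis 1. The difference was 0.28 (SE 0.41).

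Bmp3, a family member that opposes bone-forming BMPs, was well above background on 3 arthritis arrays and on triptolide 2 alone. It stood at -4.37, -3.24 and -4.67 in arthritis and at -4.75, -3.18 and -5.81 with triptolide. The high arrays were arthritis 2 and triptolide 2, 1 of each group. The difference was -0.48 (SE 0.71). Bmp2, an inducer of bone and cartilage, had levels from 0.22 to 0.74 in which each triptolide array lay close to an arthritis array. Its difference was -0.00 (SE 0.20), with a 95% interval from -0.50 to 0.49.

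Gdf10, also called BMP3B, stood at 0.88, 0.35 and 1.78 in arthritis and at 0.24, 2.74 and 0.74 with triptolide. The spread within triptolide was wider than any difference between the groups, 0.24 (SE 0.71). Its high array was triptolide 2, where the means of the nerve, smooth muscle and chondrocyte marker lists were also highest. Without arthritis 2 and triptolide 2 the difference was -0.84. Bmp1, a procollagen protease and no true BMP ligand, differed by -0.15 (SE 0.25), and its 3 tested probes all lay below 0, from -0.40 to -0.15. Bmp6 was well above background only on triptolide 2 and was not tested.

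The BMP receptors and their Smads gave the smallest differences, from -0.16 to 0.10 over 6 tested members, with a median of -0.003. Bmpr1a, a type I BMP receptor, stood at 0.35, 0.51 and 0.09 in arthritis and at -0.12, 0.61 and -0.03 with triptolide. Triptolide 1 and 3 were the lowest arrays and triptolide 2 the highest. The difference was -0.16 (SE 0.24), and the other probe gave 0.19. Acvrl1, also called ALK1, a type I receptor of endothelial cells, stood at 3.54, 3.00 and 3.38 in arthritis and at 3.25, 3.64 and 3.34 with triptolide. Its difference was 0.10 (SE 0.20). The high array was again triptolide 2.

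Smad1, the signal carrier of the BMP arm, had levels of 2.48, 2.66 and 2.67 in arthritis and of 2.67, 2.83 and 2.56 with triptolide. These values spanned 0.34 in all, and the difference was 0.08 (SE 0.15), with a 95% interval from -0.28 to 0.45. Smad5 spanned 0.27, the narrowest range of any tested member, and differed by 0.05 (SE 0.15), with an interval from -0.30 to 0.41. Bmpr2, the type II BMP receptor, differed by -0.06 (SE 0.17), and Acvr1, also called ALK2, by -0.10 (SE 0.36). A difference of 2-fold lay outside the interval for each gene of this group.

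The shared and inhibitory Smads all had negative differences. Smad4, which joins the receptor-activated Smads of both arms, stood at -0.61, -0.66 and -0.48 in arthritis and at -0.72, -1.13 and -0.74 with triptolide. Every triptolide array was below every arthritis array, and triptolide 1 lay just below arthritis 2. The difference was -0.28 (SE 0.17), 1.22-fold lower, with an unadjusted limma p of 0.152. Without triptolide 2 it was -0.15, and with slide as a block -0.13.

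Smad6, which blocks BMP receptors, had the lowest difference of all members. It stood at -3.86, -2.86 and -3.41 in arthritis and at -5.18, -3.52 and -4.20 with triptolide. Triptolide 1 and 3 were below all arthritis arrays and triptolide 2 was inside their range, while the probe was not well above background on triptolide 1. The difference was -0.92 (SE 0.47), 1.90-fold lower, with an unadjusted limma p of 0.0925 and a Benjamini-Hochberg adjusted p of 0.994. It was -0.30 after normexp background correction, where the offset shrinks differences of dim probes, and -0.48 without triptolide 1. With slide as a block it was -1.80. That value sets triptolide 1 alone, where the probe was not well above background, against the arthritis arrays. Without triptolide 2 it was -1.31, with an unadjusted limma p of 0.0242. The probe is shown because this dim signal rests on it alone. Its position on build rn4, chr8:68199857-68204156 on the minus strand, covers far more bases than the probe has, as for a match split over a gap. No base is marked.
Smad6 probe: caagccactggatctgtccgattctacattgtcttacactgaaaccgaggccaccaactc

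Smad7, which blocks the receptors of both arms and is itself induced by TGF-beta, stood at 1.48, 2.31 and 1.54 in arthritis and at 1.36, 2.01 and 1.20 with triptolide. Its high arrays were arthritis 2 and triptolide 2, and the groups overlapped. The difference was -0.25 (SE 0.32). It was 0.02 without arthritis 2.

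**Figure D4:**
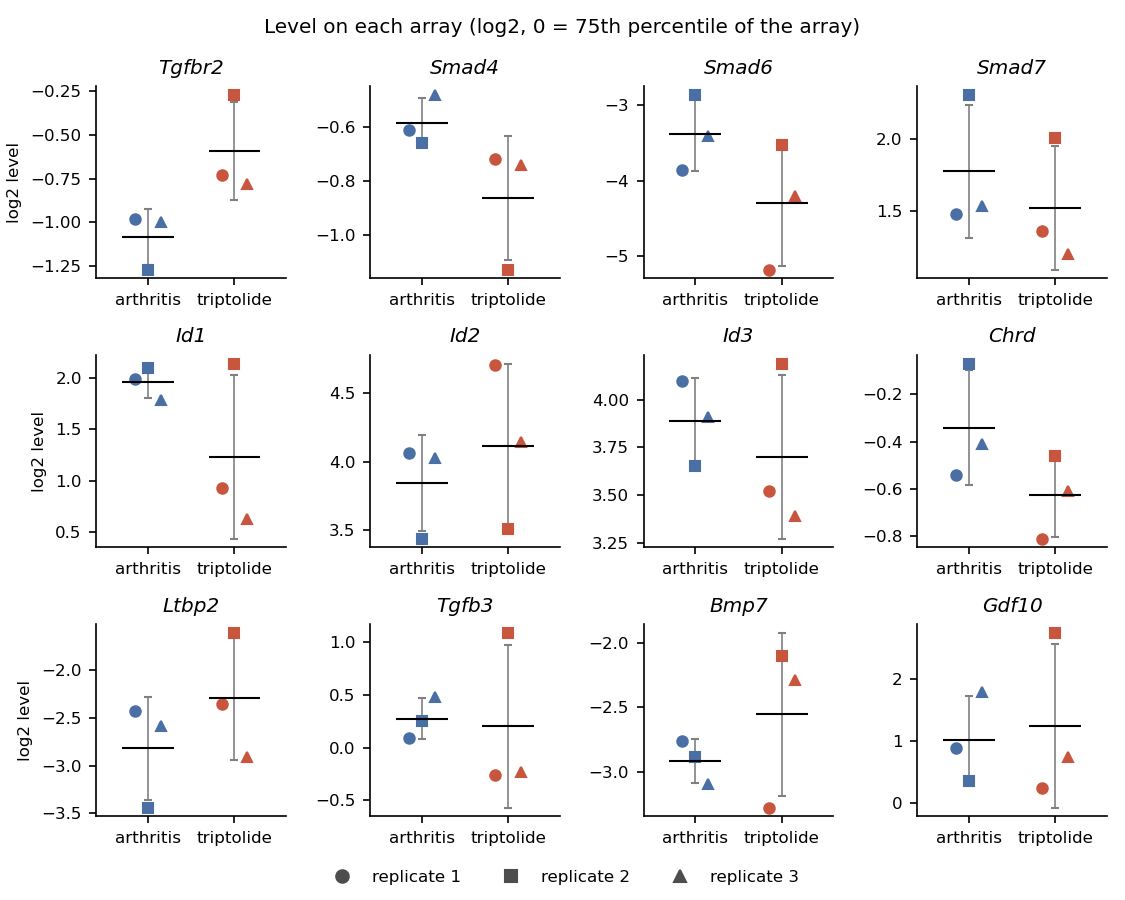
Log2 level on each array (y axis, 0 is the 75th percentile of the array) for 12 members, by group (x axis). Symbols mark the replicate, bars the mean and whiskers the SD of 3 arrays. Tgfbr2 and Smad4 are the genes whose groups do not overlap. Triptolide 2 is the highest array for Tgfbr2, Id1, Id3, Ltbp2, Tgfb3, Bmp7 and Gdf10.

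The 3 Id genes differed in sign, and none passed the test. They code for proteins that bind basic helix-loop-helix transcription factors and keep them off DNA. Their differences were -0.72 for Id1, -0.18 for Id3 and 0.27 for Id2. The bases before their start sites are shown to compare them. These are the 250 bases before the start in RefSeq on build GRCr8, read in the direction of the gene, at chr3:161671314-161671563 on the plus strand (Id1), chr5:153656041-153656290 on the plus strand (Id3) and chr6:47470996-47471245 on the minus strand (Id2). Capitals mark TATAA on either strand, which in Id1 reads on both strands with overlap.
Id1: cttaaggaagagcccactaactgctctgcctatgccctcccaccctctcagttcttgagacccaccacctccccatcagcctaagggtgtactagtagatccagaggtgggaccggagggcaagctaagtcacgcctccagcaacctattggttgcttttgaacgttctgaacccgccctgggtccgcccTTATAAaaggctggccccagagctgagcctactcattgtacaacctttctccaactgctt
Id3: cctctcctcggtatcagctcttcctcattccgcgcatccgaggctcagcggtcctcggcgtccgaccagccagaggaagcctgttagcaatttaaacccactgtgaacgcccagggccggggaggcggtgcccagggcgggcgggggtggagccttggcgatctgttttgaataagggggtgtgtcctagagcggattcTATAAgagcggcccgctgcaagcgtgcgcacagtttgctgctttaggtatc
Id2: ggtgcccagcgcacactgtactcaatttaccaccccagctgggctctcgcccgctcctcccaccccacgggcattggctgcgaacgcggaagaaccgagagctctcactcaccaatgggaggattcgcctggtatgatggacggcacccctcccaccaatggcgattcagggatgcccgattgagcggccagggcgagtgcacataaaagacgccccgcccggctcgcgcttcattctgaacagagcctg

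An exact match to TATAA was found before Id1 and Id3 and not before Id2. The search did not count near matches, such as the cataaaa in the Id2 window. TATAA was present in 24.0% of 33469 RefSeq windows of the same length and in 6 of the 28 members with a window (Bmp4, Bmpr1a, Id1, Id3, Inhba and Smad4). GGCGCC, searched as a BMP-type Smad motif, was in 8.69% of windows and in 9 of 28 members (Chrd, Gdf10, Grem1, Inhbb, Nog, Smad2, Smad7, Tgfbr1 and Tgfbr3). GTCTAGAC, the palindromic Smad motif, was in 0.173% of windows and in 0 of 28 members. Both strands were searched. The background counts each window, but a member counts if any of its windows matches, so the shares differ in unit and cannot be compared directly. A match describes the letters of these windows only.

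Id1 stood at 1.99, 2.10 and 1.79 in arthritis and at 0.93, 2.14 and 0.63 with triptolide. Triptolide 1 and 3 were below all arthritis arrays, and triptolide 2 was just above them. The difference was -0.72 (SE 0.40), 1.65-fold lower, with an unadjusted limma p of 0.117. Without triptolide 2 it was -1.18, with an unadjusted limma p of 0.00116, a value that leaves out the array that lay on the other side. Without triptolide 3 it was -0.42. Several marker lists had the same order on triptolide 1, 2 and 3, high on triptolide 2. Their mean deviations on these arrays were -0.96, 2.41 and -1.14 for nerve, -0.62, 1.77 and -1.0 for smooth muscle, -0.60, 1.35 and -1.18 for chondrocyte and -0.13, 0.77 and -0.33 for endothelial markers. On the arthritis arrays Id1 lay close to its triptolide 2 value, whereas these lists lay below theirs. They stood there at 0.02, -0.48 and 0.15 for nerve and at -0.31, 0.29 and -0.13 for smooth muscle. For chondrocyte they were -0.09, 0.32 and 0.19, and for endothelial markers -0.02, -0.24 and -0.04. The part of tissue makeup in Id1 was not tested.

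Id3 stood at 4.10, 3.65 and 3.91 in arthritis and at 3.52, 4.19 and 3.39 with triptolide. As with Id1, triptolide 1 and 3 were the lowest arrays and triptolide 2 the highest. The difference was -0.18 (SE 0.26), and all 3 tested probes lay below 0, from -0.27 to -0.18. Id2 stood at 4.06, 3.44 and 4.03 in arthritis and at 4.70, 3.51 and 4.14 with triptolide. Triptolide 1 was here the highest array, and arthritis 2 and triptolide 2 were the lowest. The difference was 0.27 (SE 0.34), with 0.33 and 0.35 by the other probes. Several marker lists were also lowest on arthritis 2 and triptolide 2. The T and NK cell list stood there at -0.70 and -0.97, against 0.24 to 0.56 on the other arrays. The macrophage list stood at -0.41 and -0.52, against 0.04 to 0.45, and the synovial fibroblast list at -0.75 and -0.49, against 0.13 to 0.56.

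Of the 4 secreted antagonists, 3 had a negative and 1 a positive difference, with a median of -0.25. Chrd, coding for chordin, which traps BMPs, stood at -0.54, -0.07 and -0.41 in arthritis and at -0.81, -0.46 and -0.61 with triptolide. Triptolide 1 and 3 were the lowest arrays, and triptolide 2 lay inside the arthritis range. The difference was -0.29 (SE 0.19), but the other tested probe gave 0.26. Nog, coding for the BMP trap noggin, stood at -2.41, -0.99 and -1.91 in arthritis and at -2.35, -1.60 and -2.55 with triptolide. Arthritis 2 was the highest array, and the groups overlapped. The difference was -0.39 (SE 0.42), and -0.00 without arthritis 2. The other tested probe gave 0.02.

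Grem1, coding for gremlin, a BMP trap of fibroblasts, stood at -1.62, -2.98 and -2.22 in arthritis and at -1.76, -2.41 and -1.52 with triptolide. Arthritis 2, which was also lowest for the synovial fibroblast markers (-0.75), was the low array. The difference was 0.38 (SE 0.40), and 0.03 without arthritis 2. Fst, coding for the activin trap follistatin, differed by -0.22 (SE 0.38), with its high values on arthritis 2 (2.14) and triptolide 2 (2.04).

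For 13 members with several tested probes, the sign of the difference could be compared between probes. It differed in 7 (Bmpr1a, Bmpr2, Chrd, Inhbb, Nog, Smad5 and Tgfbr1).

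A further 56 genes of the pathway were followed in 5 lists of other receptors, ligands and activators, antagonists, intracellular regulators and target genes. Of these, 53 had a probe and 43 were tested. With triptolide 19 had a positive and 24 a negative difference, with a median of -0.027, and 0 passed the adjusted threshold. At an unadjusted p under 0.05, 1 was higher (Gdf7) and 0 were lower, beside 2.04% and 1.29% of all tested genes. Groups did not overlap for 2 that were higher (Gdf7 and Acvr1b) and 1 that was lower (Col1a1). Over all tested genes these shares were 4.59% and 3.92%.

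Gdf7, a BMP ligand of tendon and joint, differed by 1.26 (SE 0.44) with an unadjusted limma p of 0.027, and the probe was well above background on 1 arthritis and 2 triptolide arrays. The difference was 0.20 after normexp background correction, where the offset shrinks differences of dim probes. It was 0.25 with slide as a block, with triptolide 1 as the only treated array to compare. Acvr1b, a type I activin receptor, differed by 0.43 (SE 0.18), and by 0.05 after normexp. The other receptors with the smallest p were Acvr1c (0.47) and Eng (0.21), the latter coding for the endothelial co-receptor endoglin. Among the other ligands and latency genes these were Gdf6 (-0.81) and Ltbp4 (-0.34), and among the other antagonists Nbl1 (-0.23), Sostdc1 (1.16) and Bgn (-0.21).

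Among 10 tested target genes other than Id1 to Id3, 3 had a positive and 7 a negative difference, with a median of -0.16. Postn, coding for periostin, a matrix protein induced by TGF-beta, differed by -0.76 (SE 0.39). Pmepa1, a feedback inhibitor of TGF-beta signalling, differed by -0.40. Ccn2, coding for connective tissue growth factor, a classical TGF-beta target, differed by -0.35 (SE 0.25). Col1a1, the main fibrillar collagen chain, differed by -0.20 by its brightest probe and by -0.60 and -0.98 by the others. In that order the unadjusted limma p was 0.238, 0.105 and 0.0444, and the Benjamini-Hochberg adjusted p of each was 0.994. Only the brightest probe entered the counts of genes. Among the intracellular regulators the smallest p belonged to Tob1 (-0.40), Smurf1 (0.19) and Skil (0.12).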

How the data were processed

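Total RNA from 6 samples was measured on an Agilent 1-colour rat array. The deposited files give linear spot intensity, background-subtracted within each array but not scaled across arrays. Feature Extraction 10.7.3.1 wrote them, per the file headers, and placed probes on rn4, whereas the submitters' processing notes name version 9.1. The authors' deposited log2 table of 167 rows held no probe of a member and was not used.

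Here, control and outlier spots were dropped, processed intensity was put on the log2 scale relative to the array's 75th percentile, and spots of a probe were averaged. Each array had 45018 spots, with 59.6% to 65.1% of the 43379 non-control spots well above background and 0 saturated. Probes well above background on at least 3 of 6 arrays were tested with limma 3.58.1 in R 4.3.3 (lmFit, eBayes, Benjamini-Hochberg over all tested probes), triptolide against arthritis with no block. The brightest probe stood for a gene. With 3 arrays against 3, their number limits the precision. The limma fit was tested on simulated data, with noise independent between probes and no differences in tissue makeup. Tables and plots used Python 3.11.15.

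Members and lists were chosen with earlier results of these data known. Values on every array are given for members whose groups do not overlap and for the 3 members of each role with the smallest p. Of each further list, up to 3 genes with the smallest p are named. Some genes of these lists are not reported here and are left out of their counts. Tgfb1, Tgfb3 and Gdf10 were given in full, and Col1a1 was named, after their values were seen. Alternatives were normexp background correction, quantile normalization, other filters, slide or replicate number as a block, array weights, the mean over probes and leaving out arrays. The normexp correction used an offset of 50. Sequences come from the deposited probes and from RefSeq (GRCr8).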

Additional observations from a re-analysis of the deposited data

How the results depend on the processing

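No alternative brought a member past an adjusted p of 0.05. The count of members at an unadjusted p under 0.05 was 0 after normexp and 0 with no filter on dim probes, beside 3.69% and 4.43% of all genes. Slide as a block and within slide 1 leave triptolide 1 as the only treated array to compare, so no count is given for them. The count was 4 with array weights (Bmp1, Smad6, Id1 and Id3), beside 10.6% of all genes. On leaving out 1 array it ran from 0 to 3, beside 2.42% to 6.63% of all genes, with 3 (Tgfb3, Smad6 and Id1) without triptolide 2 and 1 (Bmp7) without triptolide 1. Without arthritis 2 and triptolide 2, chosen after seeing the data, it was 5 (Tgfb3, Bmp1, Smad6, Id1 and Id3), beside 11.6% of all genes. Over all probes 24 then passed the adjusted threshold, none a member. Members whose groups do not overlap numbered 17 without both arrays (45.5% of all genes). They numbered from 2 to 13 on leaving out 1 array, 13 without triptolide 2 (28.1% of all genes). The cause was not tested, beyond the fewer arrays in each of these fits.

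Signs turned as follows. Normexp gave Bmp2 0.30, Bmpr1a 0.13, Bmpr2 0.20 and Acvr1c -0.01, and quantile normalization gave Bmp2 0.01. Slide as a block and within slide 1 gave the same values, with triptolide 1 as the only treated array: Ltbp1 -0.16, Inhbb 0.51, Bmp7 -0.36, Gdf10 -0.76 and Acvrl1 -0.06. Array weights gave Tgfb1 -0.02, Tgfb2 0.04, Ltbp1 -0.14, Ltbp2 -0.10, Inhba -0.09, Tgfbr3 -0.00, Bmp2 0.04, Gdf10 -0.48, Acvrl1 -0.12, Acvr1c -0.02, Eng -0.04, Smurf1 -0.04 and Sostdc1 -0.02. Without arthritis 2 and triptolide 2, values were Tgfb1 -0.08, Ltbp1 -0.23, Ltbp2 -0.12, Inhba -0.02, Tgfbr1 -0.05, Tgfbr3 -0.02, Gdf10 -0.84, Acvrl1 -0.17, Acvr1c -0.07, Eng -0.04, Smurf1 -0.10, Sostdc1 -0.41 and Tob1 0.13. The mean over probes gave Bmpr1a 0.02, Bmpr2 0.02 and Smad5 -0.04. On leaving out 1 array, ranges crossed 0 for Tgfb1 (-0.15 to 0.23), Tgfb3 (-0.52 to 0.15), Ltbp1 (-0.07 to 0.26), Smad2 (-0.11 to 0.22), Bmp2 (-0.14 to 0.12), Bmp3 (-1.18 to 0.13), Bmp4 (-0.01 to 0.66), Gdf10 (-0.51 to 0.74), Bmpr2 (-0.19 to 0.02), Acvr1 (-0.43 to 0.15), Acvrl1 (-0.05 to 0.22), Smad5 (-0.02 to 0.11), Smad7 (-0.50 to 0.02), Fst (-0.55 to 0.08), Id2 (-0.02 to 0.57), Skil (-0.01 to 0.23), Sostdc1 (-0.19 to 1.92) and Tob1 (-0.62 to 0.03).

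No pairing by replicate number was seen: deviations of same-numbered arrays correlated at -0.165, -0.131 and 0.001, and no array correlated best with its own number. These deviations include the tissue makeup of the arrays with extreme marker values, so they cannot decide whether samples were paired. With the replicate block 0 probes passed the adjusted threshold, and 1 member had an unadjusted p under 0.05, Smad6, with an unadjusted limma p of 0.00909, in place of Tgfbr2, at 0.0925. The deposited log2 table could give no value for a member, so that alternative was not run. Many differences of dim probes shrank with normexp background correction: Tgfbr2 to 0.29, Ltbp2 to 0.27, Tgfbr3 to 0.10, Bmp3 to -0.22, Bmp4 to 0.07, Bmp7 to 0.05, Smad6 to -0.30, Grem1 to 0.11, Gdf6 to -0.35, Gdf7 to 0.20 and Acvr1b to 0.05. Not all did so: Tgfb2 went from -0.25 to -0.24, Nog from -0.39 to -0.34 and Chrd from -0.29 to -0.35. The correction also starts from the raw spot signal, and the part of each step was not tested. The offset of 50, beside array 75th percentiles of processed intensity from 270.1 to 447.9, makes differences of dim probes smaller whatever their cause. This shrinkage therefore cannot tell whether the differences are real.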

Other observations

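Some further pathway genes, chosen after their values were seen, had a value on 1 array far from the rest. Itgb6 codes for the beta chain of an integrin that frees TGF-beta from its latent form. It stood at -5.55, 3.66 and -6.06 in arthritis and at -2.70, -4.41 and -2.66 with triptolide, and was well above background on 1 arthritis and 2 triptolide arrays. The skeletal muscle markers stood at -4.11, 8.79 and -4.22 and at 0.41, -3.16 and 2.29 on the same arrays, in mean deviation. Both were highest on arthritis 2 and lowest on arthritis 3.

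Triptolide 2 had the highest means of the nerve, smooth muscle, endothelial and chondrocyte marker lists. Sostdc1, coding for a BMP and Wnt antagonist, stood at 3.43 there and ranged from -0.93 to 0.55 on the other arrays. Fstl3, coding for an activin-binding follistatin-like protein, stood at 0.03 there and from -2.40 to -1.45 elsewhere. Tagln, coding for a smooth muscle protein that TGF-beta induces, stood at 5.70 there and from 1.91 to 3.15 elsewhere. Tagln is itself 1 of the 9 tested smooth muscle markers, so its match to that list is in part circular. The part of tissue makeup in these values was not tested.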
